A study of Mus musculus with 33 samples.

Results

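Trp53 and 30 genes known as targets of the protein it encodes were followed across 6 groups of mouse mammary tumours. The 31 genes were taken by symbol from a table of RNA-seq read counts with 54532 rows, and each matched 1 row. The tumours fall into a set whose titles end in _7, with 4 tumours given RP-6306 (M20_7) and 3 given vehicle (VEH_7), and a set without that suffix, with 11 tumours given RP-6306 (MYT) and 4 given vehicle (VEH). SPON (5 tumours) and WT (5 tumours) had no treatment. RP-6306 is an inhibitor of PKMYT1, the kinase that holds CDK1 inactive by phosphorylation. Its dose was 20 mg/kg, given as bid in the treatment field and as per day in the protocol, and how long each tumour was treated is not stated in the labels. The genotype field of every tumour reads FVB, a mouse strain, and a growth protocol shared by all samples says that tumours had been transplanted. The design text speaks of cyclin E transgenic tumours and of PyMT tumours, but whether SPON or WT is either, what _7 stands for and which transgene any single tumour carries is left unsaid in the labels. Age and sex are likewise not given. A further library with contradicting labels entered no comparison.

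The p53 protein is a transcription factor that cells accumulate after DNA damage, oncogene activation and other stress. It binds a site made of a pair of decamers and raises transcription of genes that stop the cell cycle, repair DNA, limit growth signals or lead to cell death. Mdm2, itself a target, marks p53 for degradation and closes a feedback loop, and loss of p53 function is common in mammary cancers. Because p53 is controlled largely at the protein level, the level of Trp53 RNA and the levels of its target RNAs are separate measurements.

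RefSeq promoter windows on GRCm38.p6 were available for 24 of the 31 genes. The 250 bases upstream of the annotated start were searched for the p53 consensus decamer of 10 bases, whose pattern is the same on both strands. A decamer was found upstream of 9 of the 24 genes (37.5%), and of 8.20% of the 27025 genes in the table. A pair of decamers with at most 13 bases between them was found for 1 of the 24 genes, Cdkn1a, and for 0.0666% of all genes. The upstream windows are printed for 4 genes whose levels the results turn on, 5′ to 3′ on the strand of the gene, with each decamer in capitals. Cdkn1a encodes the CDK inhibitor p21 and lies on the forward strand, its window at chr17:29090729-29090978. The others lie on the reverse strand: Ccng1, which encodes cyclin G1, with chr11:40755287-40755536, Mdm2 with chr10:117710759-117711008, and Eda2r, a receptor of the TNF receptor family, with chrX:97377210-97377459.
Cdkn1a: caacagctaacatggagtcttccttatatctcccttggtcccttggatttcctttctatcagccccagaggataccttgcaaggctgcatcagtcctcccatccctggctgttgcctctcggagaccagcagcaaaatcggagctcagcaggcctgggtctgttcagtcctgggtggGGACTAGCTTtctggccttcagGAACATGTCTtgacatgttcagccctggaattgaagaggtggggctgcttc
Ccng1: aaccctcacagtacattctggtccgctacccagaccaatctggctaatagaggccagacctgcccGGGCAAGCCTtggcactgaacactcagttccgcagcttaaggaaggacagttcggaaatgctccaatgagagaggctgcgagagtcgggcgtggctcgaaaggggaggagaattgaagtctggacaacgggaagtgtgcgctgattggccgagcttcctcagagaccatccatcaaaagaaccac
Mdm2: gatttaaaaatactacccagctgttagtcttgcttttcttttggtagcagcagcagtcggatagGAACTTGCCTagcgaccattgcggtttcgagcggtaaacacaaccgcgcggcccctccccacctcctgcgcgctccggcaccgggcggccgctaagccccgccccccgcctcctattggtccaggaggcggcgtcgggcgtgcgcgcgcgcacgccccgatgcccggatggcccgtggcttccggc
Eda2r: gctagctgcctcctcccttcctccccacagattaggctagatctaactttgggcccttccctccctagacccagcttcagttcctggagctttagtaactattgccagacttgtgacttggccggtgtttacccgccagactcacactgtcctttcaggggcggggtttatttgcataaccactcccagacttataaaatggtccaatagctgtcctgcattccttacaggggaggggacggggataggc
The decamers of Cdkn1a start at -73 and -51 relative to the annotated start. A second RefSeq start of Cdkn1a, with the window chr17:29093519-29093768, had none. The decamers of Mdm2 and Ccng1 start at -186 and -185. The Eda2r window held no match, which says only that these letters are absent from that window. A match is a description of the sequence, not evidence of binding.

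Depth was 26517748 to 34637096 counts per library in the set titled _7 and 13701115 to 20105407 counts in the other 4 groups. Levels are given as CPM, counts scaled to 1000000 per library with TMM factors over the 32 grouped libraries. All 31 genes passed the filter on low counts in every comparison. A change was called at an edgeR quasi-likelihood p under 0.05 after Benjamini-Hochberg adjustment over all genes tested. In these bulk samples, fewer cells of a type and less RNA per cell cannot be told apart. The labelled mammary origin was checked against 8 epithelial markers. Their summed level was 30.1 to 64.4 CPM in M20_7, 21.6 to 84.0 CPM in VEH_7, 3786 to 9840 CPM in MYT, 615 to 1805 CPM in VEH, 4290 to 10714 CPM in SPON and 3780 to 5036 CPM in WT. The 7 tumours of the set titled _7 thus held far less epithelial RNA than the other 25, although no marker was at 0 throughout a group.

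**Figure D1:**
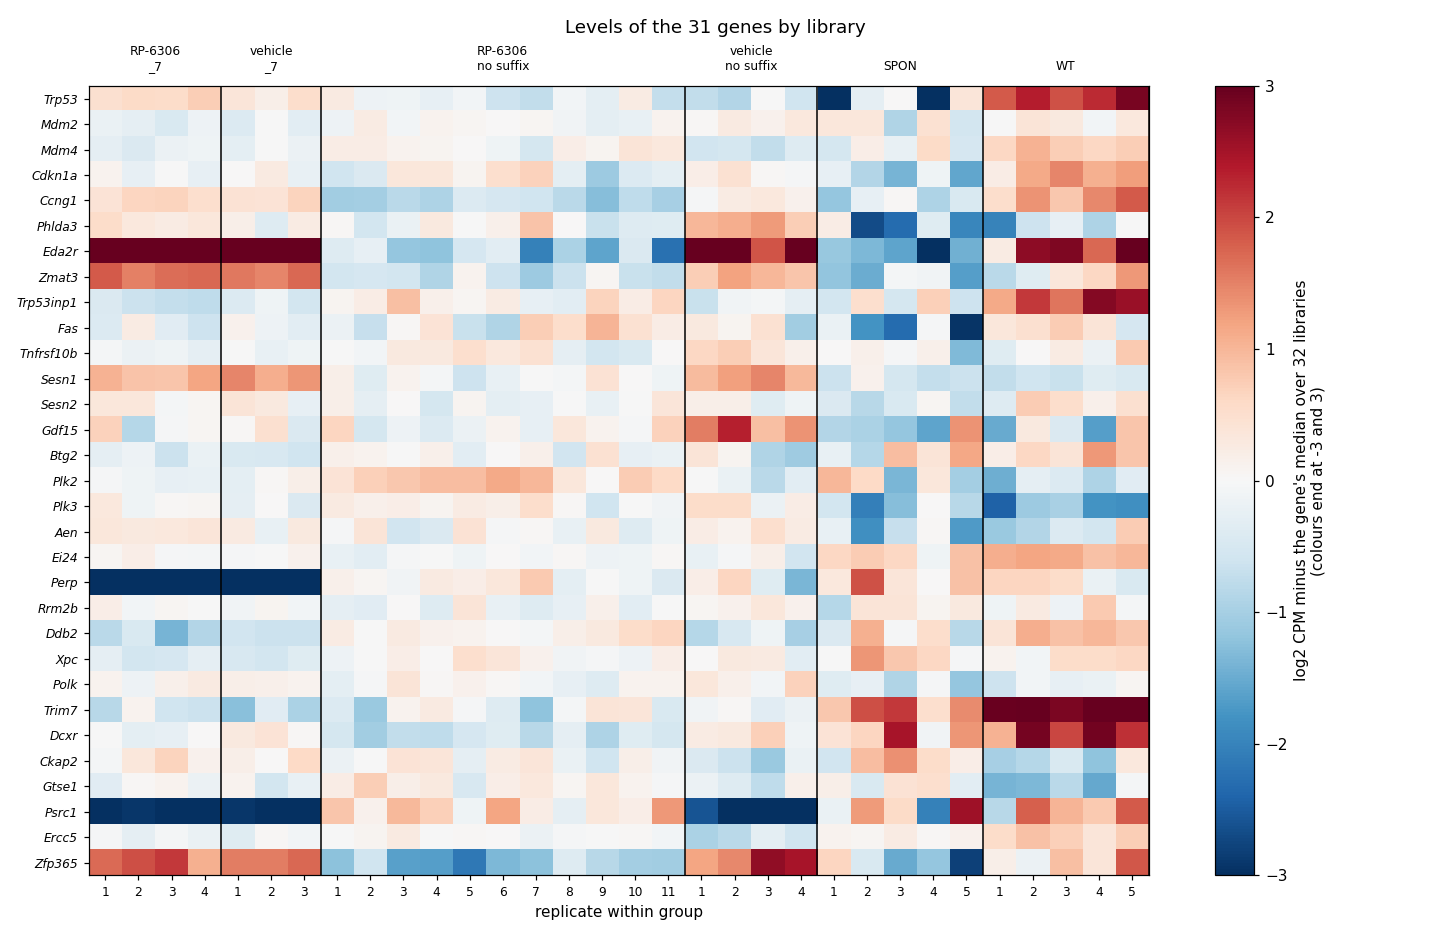
Colours show, for each of the 31 genes (down) and each of the 32 grouped libraries (across, numbered by replicate), log2 CPM minus the median of the gene over the libraries, from blue (lower) to red (higher), with colours ending at -3 and 3. Trp53 was highest in the 5 WT libraries and lowest in SPON replicates 1 and 4, Perp was low in all 7 libraries titled _7, and Eda2r and Zfp365 separated MYT from VEH.

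Trp53 RNA had its highest levels in the WT tumours, and WT was the only group whose range stood apart from its neighbour in the order of group means. In the set titled _7, Trp53 had 52.0, 55.5, 54.5 and 61.9 CPM in M20_7 tumours, against 48.1, 42.3 and 53.9 CPM in VEH_7 tumours. In MYT tumours the lowest, median and highest values were 22.3, 33.4 and 45.1 CPM, against 22.3, 20.2, 37.0 and 24.6 CPM in VEH tumours. SPON tumours had 3.68, 31.1, 37.8, 2.47 and 48.0 CPM, against 134, 190, 142, 177 and 268 CPM in WT tumours. SPON replicates 1 and 4 thus lay far below the other 3 SPON tumours and below every other library. By mean, the order was WT, M20_7, VEH_7, MYT, VEH and SPON, and below WT the ranges of neighbouring groups overlapped. Per kilobase of exon, Trp53 averaged 6.08 CPM in SPON and 45.1 CPM in WT. Trp53 lies on chromosome 11 from 69580359 to 69591873 (GRCm38, forward strand), and its processed pseudogene Trp53-ps, which could take reads of the gene, had 0 to 4.94 CPM.

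**Figure D2:**
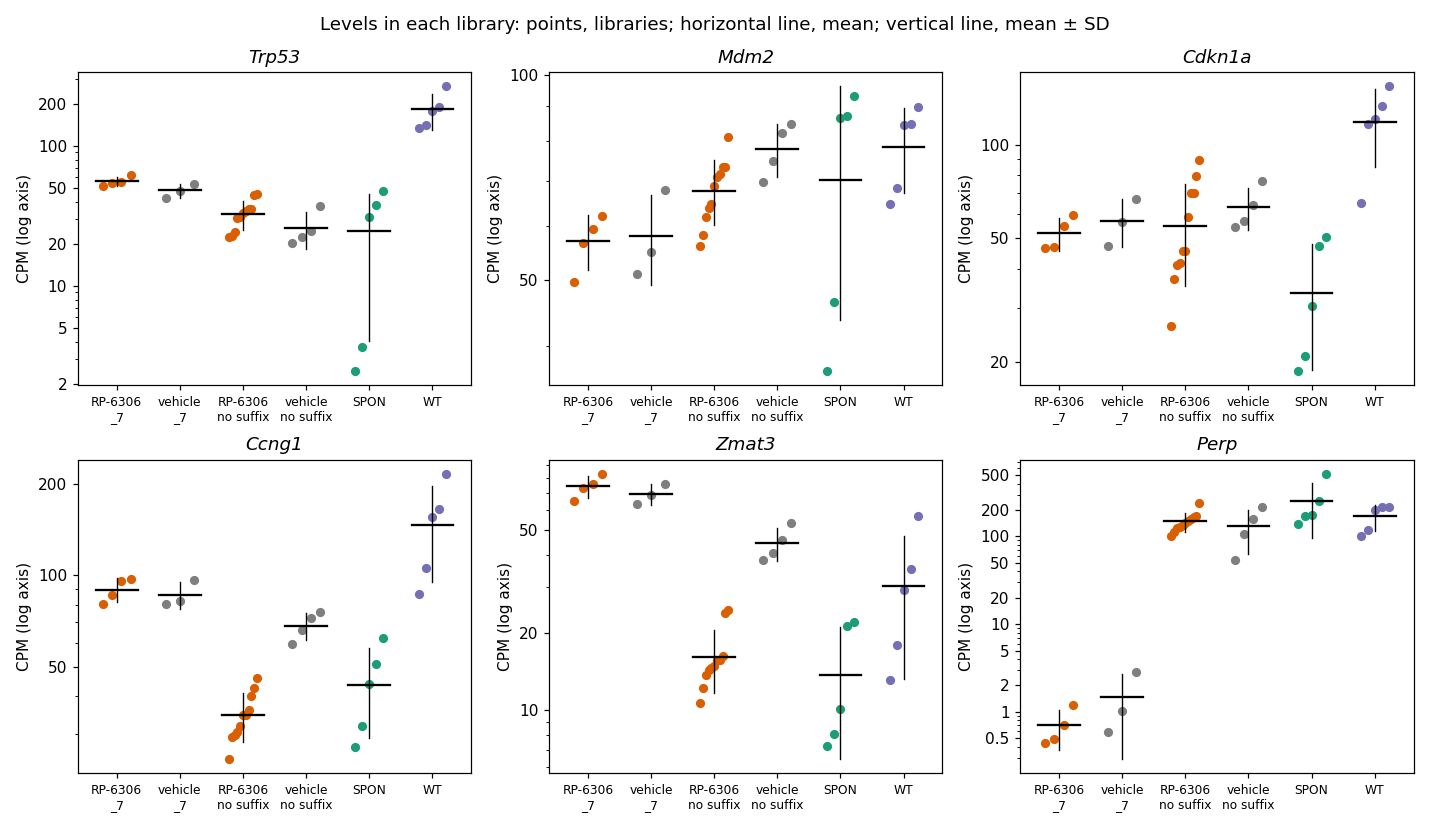
Each panel shows 1 gene in CPM on a log axis, with a point per library, a horizontal line at the group mean and a vertical line for the mean ± SD (n = 4, 3, 11, 4, 5 and 5 from left to right). Group means of Mdm2 stay between 57.0 and 78.4 CPM, Cdkn1a and Ccng1 are lower in SPON than in WT without overlap, Zmat3 and Ccng1 are lower in MYT than in VEH, and Perp lies between 0.438 and 2.85 CPM in the set titled _7.

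In the set titled _7, no change between RP-6306 and vehicle tumours was called for any of the 31 genes. None was called over all 16699 genes tested either (0%), where the smallest adjusted p was 0.113. At an unadjusted p under 0.05 there were 2 of the 31 genes and 1033 of all genes. These 2 were Sesn1, a sestrin that restrains mTORC1 signalling, and Dcxr, a dicarbonyl and xylulose reductase. Sesn1 had 43.2, 37.9, 36.9 and 47.2 CPM in M20_7, against 57.2, 44.3 and 52.4 CPM in VEH_7 (log2 fold change -0.30 ± 0.13 SE, edgeR adjusted p 0.797). Dcxr had 8.27, 6.80, 7.07 and 8.41 CPM in M20_7, against 10.2, 11.04 and 8.54 CPM in VEH_7, ranges that did not overlap (-0.37 ± 0.16, edgeR adjusted p 0.797). The log2 fold change of Trp53 was 0.23 ± 0.12, of Mdm2 -0.01 ± 0.12 and of Cdkn1a -0.12 ± 0.14, each within 2 standard errors of 0. The median log2 fold change was -0.00 over the 31 genes and 0.01 over all genes. With DESeq2 in place of edgeR, 60 genes were called over the whole table and none of the 31.

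In the set without suffix, 16 of the 31 genes changed between MYT and VEH, 8 higher and 8 lower in MYT. Over all 16021 genes tested, 59.5% were called (30.5% higher and 29.0% lower), so the share among the p53 genes, 51.6%, was not above that of the table. The median log2 fold change was -0.02 for the 31 genes and 0.04 for all genes. Many cell type markers moved in the same comparison. Of 8 epithelial markers, 8 were higher in MYT. All 8 mesenchymal and fibroblast markers were lower, with a summed level of 2324 to 7200 CPM in MYT against 23599 to 40321 CPM in VEH. Of the leukocyte markers, 5 of 7 tested were lower, and so were 5 of 5 endothelial markers. Skeletal muscle markers, 2 of 3 tested lower, summed to 0.681 to 6.29 CPM in MYT against 70.6 to 942 CPM in VEH. Nearly all of the VEH sum was Acta1, with a mean of 458 CPM there, while Ckm, Myh4, Tnnt3 and Mylpf averaged 0.115 to 1.61 CPM. Of 6 basal epithelial markers, 2 were higher and 2 lower. Of 16 proliferation genes, 15 were higher. The part of these shifts in the changes of the p53 genes was not tested.

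Neither Trp53 nor its main negative regulator was called in this comparison. Trp53 had a log2 fold change of 0.36 ± 0.20 (edgeR adjusted p 0.139), and without VEH replicate 3, the highest of the 4, it was 0.57 with an adjusted p of 0.0302. With all libraries, limma voom with sample quality weights called Trp53 (0.45, adjusted p 0.0408), beside 10139 genes over the whole table. Mdm2 had 56.1, 68.7 and 81.2 CPM as lowest, median and highest in MYT, against 69.6, 82.4, 74.8 and 84.7 CPM in VEH (-0.18 ± 0.10, edgeR adjusted p 0.124). Mdm4, a relative of Mdm2 that binds p53 and blocks its activity, was higher, at 90.2, 139 and 170 CPM in MYT, against 87.8, 89.8, 77.4 and 98.8 CPM in VEH (0.68 ± 0.14, edgeR adjusted p 0.000430). The lowest MYT library lay within the range of VEH for Mdm4.

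Genes of cell cycle arrest went different ways. Cdkn1a was not called, at 26.2, 45.6 and 89.3 CPM in MYT, against 64.0, 76.3, 56.9 and 54.6 CPM in VEH (-0.17 ± 0.25, edgeR adjusted p 0.571), and MYT libraries lay on both sides of all 4 VEH libraries. Ccng1, whose cyclin works with a phosphatase rather than a CDK, was lower in every MYT library than in any VEH library. It had 24.8, 34.5 and 45.9 CPM in MYT, against 59.1, 72.1, 75.4 and 65.9 CPM in VEH (-0.95 ± 0.13, edgeR adjusted p 1.1e-05). Plk2, a stress-induced polo-like kinase, moved the other way without overlap, at 116, 194 and 253 CPM in MYT, against 114, 100, 65.1 and 92.6 CPM in VEH (1.06 ± 0.19, edgeR adjusted p 0.000126). The related kinase Plk3 and the antiproliferative factor Btg2 were not called, with log2 fold changes of -0.17 ± 0.16 and 0.27 ± 0.23, although Btg2 passed without VEH replicate 1 (0.57, edgeR adjusted p 0.0435).

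Among genes tied to cell death and growth signals, the largest change was that of Eda2r, which had few reads in MYT. Its level was 0.0947, 0.379 and 0.681 CPM in MYT (lowest, median, highest), against 7.64, 8.69, 3.35 and 10.9 CPM in VEH, with log2 fold change -4.18 ± 0.37 (edgeR adjusted p 1.05e-07). The mean of VEH was 18.7 times that of MYT, and the MYT libraries held 2 to 13 reads each. Zmat3, an RNA-binding zinc finger protein that regulates splicing, had 10.6, 14.8 and 24.5 CPM in MYT, against 38.4, 53.3, 45.6 and 40.6 CPM in VEH (-1.45 ± 0.18, edgeR adjusted p 2.72e-06). Phlda3, which keeps AKT from the membrane, had 38.1, 60.8 and 111 CPM in MYT, against 122, 129, 147 and 102 CPM in VEH (-1.02 ± 0.20, edgeR adjusted p 0.000375). Zmat3 did not overlap between the groups, and the highest MYT value of Phlda3 passed the lowest VEH value. Trp53inp1, a stress protein that promotes p53 activity, was higher (0.56 ± 0.20, edgeR adjusted p 0.0235), at 16.3, 23.6 and 37.8 CPM in MYT against 12.8, 18.8, 19.6 and 17.0 CPM in VEH. That call was lost without VEH replicate 1 (adjusted p 0.0901), without VEH replicate 4 (adjusted p 0.0508) or in 1 fit over the 32 libraries (adjusted p 0.0938). The death receptors Fas and Tnfrsf10b, the desmosome protein gene Perp, the nuclease gene Aen and Ei24, which encodes a protein of the endoplasmic reticulum, were not called, with log2 fold changes between -0.37 and 0.20. Tnfrsf10b, at -0.37, passed without MYT replicate 5 (-0.42, edgeR adjusted p 0.0476). It also passed with all libraries under limma voom with sample quality weights (-0.44, adjusted p 0.0201).

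Of the remaining members Sesn1, Sesn2, Gdf15, Dcxr, Zfp365 and Trim7, 4 were lower in MYT and 2 were not called. Over all genes, 59.5% were called and 29.0% were lower. Sesn1 had 13.4, 20.0 and 28.3 CPM in MYT, against 40.2, 49.2, 57.6 and 41.1 CPM in VEH, with no overlap (-1.19 ± 0.15, edgeR adjusted p 3.97e-06). Its paralogue Sesn2 was not called, with a log2 fold change of -0.02 ± 0.15. Gdf15, a secreted cytokine of the TGF-beta superfamily, had 1.77, 2.52 and 4.21 CPM in MYT, against 7.64, 13.3, 4.89 and 6.73 CPM in VEH (-1.54 ± 0.26, edgeR adjusted p 6.74e-05). Dcxr was lower (-0.89 ± 0.18, edgeR adjusted p 0.000362). Zfp365, whose human counterpart acts in genome stability, was at 0.185, 0.443 and 0.884 CPM in MYT, against 2.83, 3.40, 8.04 and 7.01 CPM in VEH (-3.40 ± 0.33, edgeR adjusted p 2.11e-07). Trim7, an E3 ubiquitin ligase, was not called (0.03 ± 0.28).

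Of the 5 genes of DNA repair and nucleotide supply, 2 were higher in MYT, as were 30.5% of all genes. Ddb2, which recognises ultraviolet damage, had 10.5, 12.4 and 17.1 CPM in MYT, against 5.99, 7.82, 9.99 and 5.47 CPM in VEH (0.84 ± 0.18, edgeR adjusted p 0.000631). Of its exon bases, 23.8% lie opposite exons of Acp2, and no source used here states whether counting was stranded, so reads of the 2 genes cannot be told apart there. Ercc5, the XPG endonuclease of excision repair, had 21.2, 23.8 and 29.0 CPM in MYT, against 12.4, 13.5, 19.6 and 15.7 CPM in VEH (0.68 ± 0.12, edgeR adjusted p 0.000143). Both genes separated the groups without overlap. Xpc, a sensor of excision repair, the translesion polymerase gene Polk and Rrm2b, a small subunit of ribonucleotide reductase, were not called, at 0.05 ± 0.14, -0.29 ± 0.15 and -0.27 ± 0.14. Polk passed without VEH replicate 3 (-0.40, edgeR adjusted p 0.0393) and Rrm2b without MYT replicate 5 (-0.33, edgeR adjusted p 0.0306).

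The microtubule-associated members Psrc1, Ckap2 and Gtse1 were each higher in MYT, as were 30.5% of all genes and 15 of the 16 proliferation genes. Psrc1, which acts on the mitotic spindle, had 41.7, 64.0 and 124 CPM in MYT, against 8.30, 2.17, 4.40 and 3.37 CPM in VEH (4.07 ± 0.40, edgeR adjusted p 2.42e-07). It was also low in the set titled _7, at 3.81 to 6.54 CPM in M20_7 and 4.87 to 6.59 CPM in VEH_7. Ckap2 was higher by 0.63 ± 0.19 (edgeR adjusted p 0.00969), and lost the call in 1 fit over the 32 libraries (adjusted p 0.0657). Gtse1, which binds p53 and microtubules, was higher by 0.48 ± 0.18 (edgeR adjusted p 0.0293), a call lost without VEH replicate 2 (adjusted p 0.0854), without VEH replicate 3 (adjusted p 0.126) or in 1 fit over the 32 libraries (adjusted p 0.102).

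**Figure D3:**
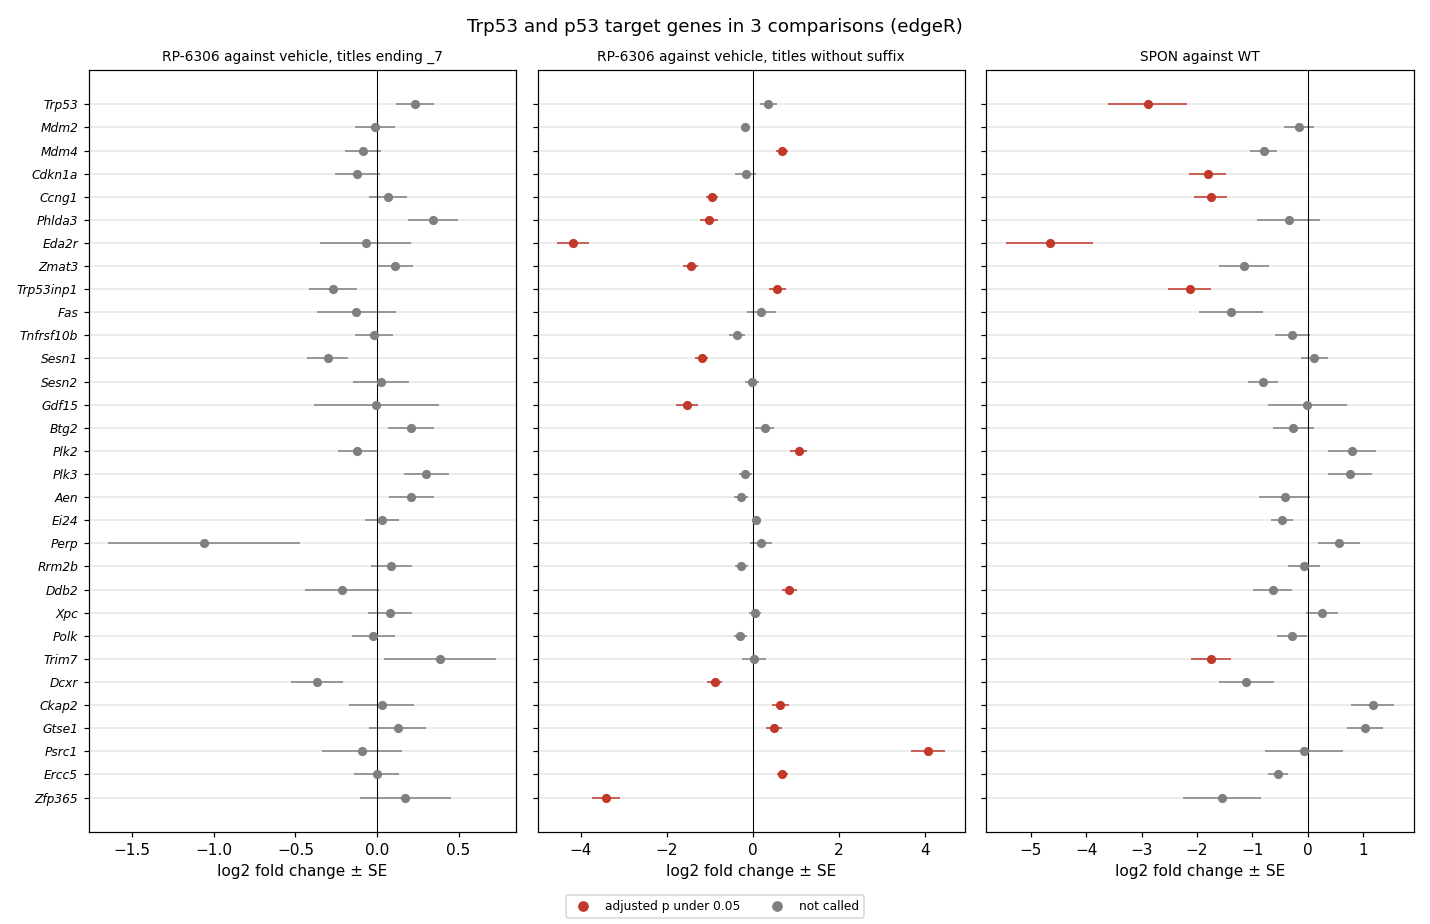
Points show the edgeR log2 fold change of each of the 31 genes (down) in 3 comparisons, with bars for ±1 SE, red where the adjusted p was under 0.05 and grey otherwise; the horizontal scales differ between panels. No gene is red in the set titled _7, 16 are red on both sides of 0 in the set without suffix, and all 6 red genes are on the left in SPON against WT.

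The gap of RP-6306 tumours from vehicle tumours was compared across the sets, in 1 fit over both. How much of either gap is due to the drug was not tested. A difference in the gap was called for 13 of the 31 genes, 6 with a higher and 7 with a lower log2 fold change without the suffix. Among the 17095 genes tested, 36.0% were called (17.0% higher and 18.9% lower). The largest differences were those of Psrc1 (4.17 ± 0.50, edgeR adjusted p 2.73e-06), Eda2r (-4.10 ± 0.56, edgeR adjusted p 1.23e-05) and Zfp365 (-3.57 ± 0.52, edgeR adjusted p 2.19e-05). In 1 fit over the 32 libraries the calls of Phlda3 (adjusted p 0.0986), Plk2 (0.0707), Ddb2 (0.0566), Trp53inp1 (0.175) and Gdf15 (0.139) were lost. Trp53, Mdm2 and Cdkn1a were not called, with differences of 0.13 ± 0.29, -0.16 ± 0.16 and -0.04 ± 0.37. The call of Trp53inp1 was lost without VEH_7 replicate 2, M20_7 replicate 3, M20_7 replicate 4 or VEH replicate 1 (edgeR adjusted p 0.0516 to 0.0942). That of Gdf15 was lost without VEH_7 replicate 3 or VEH replicate 2 (edgeR adjusted p 0.0572 and 0.0519). Perp had a difference of 1.25 ± 0.59 that was not called (edgeR adjusted p 0.102), and it passed without VEH_7 replicate 2 (1.63, adjusted p 0.0354) or VEH replicate 2 (1.57, adjusted p 0.0405). Its level was 0.495, 0.705, 0.438 and 1.18 CPM in M20_7 and 1.03, 0.588 and 2.85 CPM in VEH_7, whereas every library of the other 4 groups had at least 53.2 CPM. The same difference was called for 11 of 16 proliferation genes and 6 of 8 epithelial markers with a higher value, and for 8 of 8 mesenchymal, 5 of 7 leukocyte and 5 of 5 endothelial markers with a lower one. Their part in the values of the p53 genes was not tested. The sets differ in depth, in epithelial RNA and in an unstated feature marked by _7, which cannot be told apart here.

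In the tumours without treatment, 6 of the 31 genes were lower in SPON than in WT and none was higher, while over all 15558 genes tested 8.38% were called (3.86% lower and 4.52% higher). The median log2 fold change was -0.42 over the 31 genes and 0.07 over all genes. Trp53 itself was among the 6, with a log2 fold change of -2.89 ± 0.71 (edgeR adjusted p 0.0310) and a mean in WT 7.41 times that in SPON. All 5 SPON libraries were below all 5 WT libraries. Leaving out any 1 WT library put the adjusted p between 0.0551 and 0.0683, with log2 fold changes of -2.9997 to -2.73. Over the whole table, 506 to 550 genes were called without WT replicate 1, 2, 3 or 4, against 1303 with all libraries. Mdm2 was not called (-0.16 ± 0.27, edgeR adjusted p 0.755), at 86.7, 87.1, 36.7, 93.3 and 46.4 CPM in SPON against 68.2, 89.7, 84.5, 64.7 and 84.9 CPM in WT.

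The other 5 genes were Cdkn1a, Ccng1, Trp53inp1, Eda2r and Trim7. Cdkn1a had 47.1, 30.3, 20.9, 50.4 and 18.8 CPM in SPON, against 64.8, 121, 154, 116 and 133 CPM in WT (-1.81 ± 0.34, edgeR adjusted p 0.0111). Ccng1 had 27.2, 51.1, 62.3, 31.9 and 43.9 CPM in SPON, against 86.9, 156, 106, 166 and 216 CPM in WT (-1.76 ± 0.30, edgeR adjusted p 0.00878). Neither gene overlapped between the groups. Trp53inp1 had 13.9, 28.8, 14.1, 33.2 and 13.3 CPM in SPON, against 44.7, 88.4, 61.8, 137 and 123 CPM in WT (-2.13 ± 0.39, edgeR adjusted p 0.0105). Eda2r had 0.320, 0.259, 0.207, 0 and 0.241 CPM in SPON, against 1.002, 5.92, 6.33, 2.95 and 10.6 CPM in WT (-4.66 ± 0.79, edgeR adjusted p 0.00801), a call lost under limma voom with sample quality weights (-4.28, adjusted p 0.0744). Trp53inp1 and Eda2r separated the groups completely, and so did Trim7. Trim7 had 7.19, 15.9, 18.0, 5.80 and 11.1 CPM in SPON, against 32.4, 62.2, 29.7, 34.3 and 36.3 CPM in WT (-1.75 ± 0.35, edgeR adjusted p 0.0153). Some reads of Cdkn1a and Trim7 may belong to genes on the opposite strand, which share 7.68% of the exon bases of Cdkn1a and 6.46% and 1.84% of those of Trim7.

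Of the other 25 genes, 10 had an unadjusted p under 0.05 without passing the adjustment. In all, 16 of the 31 genes had such a p, beside 4144 of the 15558 genes tested. Mdm4 had 89.4, 149, 112, 193 and 91.3 CPM in SPON, against 201, 270, 218, 199 and 217 CPM in WT (-0.79 ± 0.24, edgeR adjusted p 0.0661). Ercc5 showed a small and even difference without overlap, at 25.8, 24.9, 28.4, 24.4 and 26.2 CPM in SPON, against 35.1, 43.7, 39.0, 30.5 and 40.0 CPM in WT (-0.53 ± 0.18, edgeR adjusted p 0.0858). Gtse1 and Ckap2 had positive values, 1.03 ± 0.33 and 1.17 ± 0.39, with edgeR adjusted p of 0.0768 and 0.0833. Leaving out single libraries brought in calls for Ckap2 (without SPON replicate 1 or WT replicate 5), Gtse1 (without WT replicate 5), Mdm4 (without SPON replicate 4) and Dcxr (without SPON replicate 3), at edgeR adjusted p of 0.0247 to 0.0425. Each time, the library left out was the one of its group whose value leaned most towards the other group. Its removal therefore widens the gap. With all libraries, DESeq2 called Mdm4, Ercc5, Ckap2 and Gtse1 (adjusted p 0.0308 to 0.0385), beside 2857 genes over the whole table. Mdm4 was also called by limma voom without and with quality weights (adjusted p 0.0464 and 0.0301). In 1 fit over the 32 libraries, 18 of the 31 genes were called, beside 5472 of 18184 over the table. Mdm4, Ercc5, Ckap2, Gtse1 and Dcxr passed there (edgeR adjusted p 0.000813 to 0.0124). Sesn2, Zmat3, Ei24, Fas and Zfp365, lower in SPON, and Plk2 and Plk3, higher, also passed (edgeR adjusted p 0.00289 to 0.0452). Of the 16 proliferation genes, 10 were higher in SPON. Marker sums of other cell types overlapped between the groups, with leukocyte markers at 63.0 to 200 CPM in SPON and 64.7 to 89.4 CPM in WT, and none of 8 epithelial markers was called. Mesenchymal and fibroblast markers summed to 1350 to 6969 CPM in SPON and 837 to 2280 CPM in WT, with 1 of 8 higher. The part of these markers and of proliferation in the changes of the p53 genes was not tested.

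The SPON tumours were not alike, and their spread bears on these values. The lowest correlation between 2 libraries of the group was 0.861, against 0.939 in WT. SPON replicates 1 and 4, with 3.68 and 2.47 CPM of Trp53, were above the other 3 SPON tumours for 6 of the 31 genes: Cdkn1a, Phlda3, Fas, Sesn2, Plk3 and Aen. They were below the other 3 for 7 genes, which besides Trp53 were Ccng1, Perp, Rrm2b, Trim7, Dcxr and Psrc1. The remaining 18 genes were mixed. Over 18184 genes, replicates 1 and 4 were both above the other 3 for 13.3% and both below them for 14.9%. The tumours with the least Trp53 RNA in the group therefore had the most Cdkn1a RNA in it, 47.1 and 50.4 CPM beside 18.8 to 30.3 CPM in the others. Phlda3 had 70.5 and 46.9 CPM in replicates 1 and 4 and 9.34, 12.2 and 15.6 CPM in the other 3, where WT tumours had 15.0 to 60.8 CPM. Across 18184 genes, replicates 1 and 4 had correlations of 0.934 and 0.956 with the mean of the MYT tumours, and the other 3 had 0.880 to 0.902. With the mean of the WT tumours, replicates 1 and 4 had 0.896 and 0.898, and replicates 2, 3 and 5 had 0.927, 0.902 and 0.889.

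**Figure D4:**
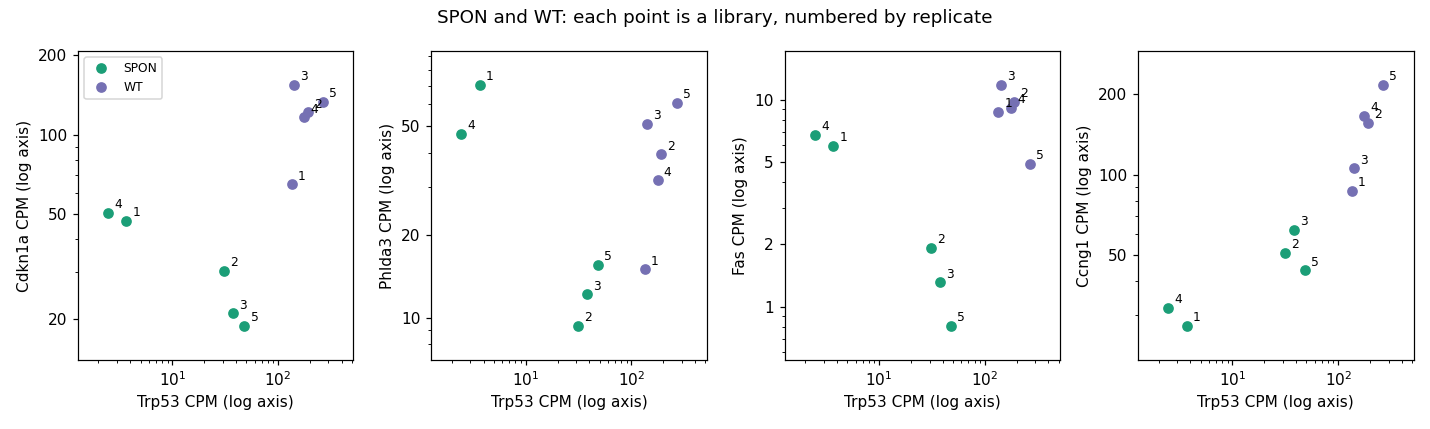
Each point is a SPON or WT library, numbered by replicate, with Trp53 CPM on the horizontal and Cdkn1a, Phlda3, Fas or Ccng1 CPM on the vertical axis, all on log scales. SPON replicates 1 and 4 lie at the far left at 3.68 and 2.47 CPM of Trp53, above the other 3 SPON libraries for Cdkn1a, Phlda3 and Fas and below them for Ccng1.

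Without SPON replicates 1 and 4, a comparison added after the data had been seen, 10 of the 31 genes were called, 9 lower and 1 higher. The 6 genes remained lower, with Trp53 at a log2 fold change of -2.23 (edgeR adjusted p 0.00404). The libraries left out were the SPON tumours with the lowest Trp53 and the highest Cdkn1a. The calls of Trp53 and Cdkn1a here are therefore shaped by that choice and add nothing to those with all libraries. Mdm4 was also lower (-0.91) and Ckap2 was higher by 1.44 (edgeR adjusted p 0.0405). Of the SPON tumours, replicate 4 had the highest Mdm4 (193 CPM) and replicate 1 the lowest (89.4 CPM). Replicate 1 also had the lowest Ckap2 (23.9 CPM). The calls of Mdm4 and Ckap2 here are thus shaped by the choice too. Phlda3 (-1.68) and Fas (-2.70) were also called. Both genes had their highest SPON values in the libraries left out, so these calls are shaped by that choice and are no finding. With all libraries, Phlda3 had -0.35 ± 0.57 and Fas -1.39 ± 0.57, neither called (edgeR adjusted p 0.737 and 0.152). Fas passed with all libraries under limma voom with sample quality weights (-2.04, adjusted p 0.0434) and in 1 fit over the 32 libraries (-1.40, edgeR adjusted p 0.0161). Over all genes, 1627 of 16384 tested were then called (877 higher and 750 lower), against 1303 of 15558 with all libraries.

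Genes that act on p53 and targets outside the 31 were described from lists chosen beside them. Of 18 regulators of p53 tested in the set without suffix, 11 were higher and 4 lower in MYT, where 30.5% and 29.0% of all genes were. The smallest p-values belonged to Trp53bp2, whose product binds p53 and promotes its apoptotic function (log2 fold change 1.88), Daxx, a histone chaperone that interacts with Mdm2 (0.66), and Cdkn2a, the locus of the Mdm2 inhibitor p19Arf and of p16 (-1.64). Of 15 further targets tested, 4 were higher and 4 lower, 53.3% called beside 59.5% of all genes. Pidd1, a death domain adaptor, was higher by 1.07, while Ephx1, an epoxide hydrolase, and Apaf1, the core of the apoptosome, had log2 fold changes of -1.24 and -0.92. In the set titled _7, none of 18 regulators, none of 17 further targets and none of 16 proliferation genes was called.

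In SPON against WT, 1 of 18 regulators was called. Cdkn2a had 360, 43.2, 150, 151 and 308 CPM in SPON, against 3.23, 28.2, 13.2, 4.49 and 21.8 CPM in WT (log2 fold change 3.84 ± 0.71, edgeR adjusted p 0.0111). Every SPON library was above every WT library, and the counts do not separate the p16 and p19Arf transcripts of the locus. Of 15 further targets, Dram1, a lysosomal protein gene, was higher (2.96, edgeR adjusted p 0.0195), and Ephx1 (-2.85, edgeR adjusted p 0.00688) and Bbc3, which encodes the BH3-only protein PUMA (-1.63, edgeR adjusted p 0.0244), were lower. Of the proliferation genes, the smallest p-values belonged to Mcm2, a subunit of the replicative helicase (1.98), Ccnb1, which encodes cyclin B1 (1.52), and the mitotic kinase gene Plk1 (1.26).

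Within the 11 MYT tumours, the other genes were compared with Trp53 and with Cdkn1a, library by library, in 59 pairs. No gene passed the adjustment with Trp53. With Cdkn1a, Plk2 had Pearson's r 0.88 (permutation p adjusted over the 59 pairs 0.0142; Spearman's rho 0.86) and Tnfrsf10b had r 0.86 (adjusted permutation p 0.0283; rho 0.83). None passed by Spearman's rho after adjustment, and none passed without the 2 libraries farthest from the median of Cdkn1a, where r was 0.84 and 0.82. Cdkn1a, Plk2 and Tnfrsf10b all split the group by the number in the titles. The 5 libraries numbered 2639 to 2706 had 58.8 to 89.3 CPM of Cdkn1a, and the 6 numbered 410 to 968 had 26.2 to 45.6 CPM. Within these 6, r with Cdkn1a was 0.75 for Plk2 (exact permutation p 0.0764) and 0.55 for Tnfrsf10b (exact permutation p 0.260), so neither relation was shown within that subset. No correlation was computed for the other 5 libraries. Over 18184 genes, 3.73% split the group by title number without overlap.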

How the data were processed

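RNA from 33 mouse mammary tumours was sequenced, and 32 samples were grouped by title and treatment field (M20_7, VEH_7, MYT, VEH, SPON, WT). For 1 sample title and treatment field contradict each other, and it was left out. Replicate numbers follow accession order and carry no pairing. Nothing in the labels ties samples of a group to separate animals, so a p-value reflects only the spread among these libraries, which may be technical. STAR 2.7.10a, HTSeq, edgeR and the build GRCm38 are named in the submitters' processing notes. The kit, its strandedness and the annotation release are not given in the sources used here.

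The deposited counts were whole numbers of reads per gene for 54532 rows and 33 samples, with no other columns of samples. Rows without a symbol (791) held 0.0482% of the counts and were kept under their identifiers. The authors' second table held log2 CPM, which differed from log2 CPM recomputed from the counts (TMM factors, prior count 2) by at most 0.0576. All results come from the counts. No 2 libraries of a group agreed within sampling noise (90 pairs, lowest ratio of chi-square to its degrees of freedom 16.1), so each library counted as 1 sample.

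Each comparison was fitted on its own groups (edgeR 4.0.16, R 4.3.3) after filterByExpr and TMM, by glmQLFit and glmQLFTest, with Benjamini-Hochberg adjustment over all genes tested, and was tested on simulated data. Standard errors were derived from the F statistics. CPM used TMM factors over the 32 grouped libraries. Correlations used log2 CPM and two-sided permutation tests with 100000 resamples, or exact ones for 6 libraries. Alternatives tried were no filter, DESeq2 size factors in edgeR, DESeq2 1.42.0, limma 3.58.1 voom without and with quality weights, a fold of at least 2 (glmTreat), 1 fit over 32 libraries, each library left out in turn, and SPON without replicates 1 and 4. Gene positions, exon lengths and overlaps came from GENCODE M21 on GRCm38, and promoter windows from RefSeq on GRCm38.p6.

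The 31 genes and the lists were chosen with earlier results of these data known. The text names all 31 genes, and of the lists of regulators, further targets and proliferation genes those called in the set without suffix or in SPON against WT with the 3 smallest p. For proliferation these are named in SPON against WT.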

Additional observations from a re-analysis of the deposited data

Results flagged for a closer look

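Single libraries stood far from the rest of their group in 6 of 124 pairs of a gene and a group of 4 or 5 libraries. The groups examined were M20_7, VEH, SPON and WT. Chance gives about 1 in 20, a share close to that found. In WT, replicate 2 was far above the others for Mdm4 (270 CPM) and Trim7 (62.2 CPM), and replicate 5 for Aen (51.9 CPM). In SPON, replicate 5 was far below the others for Tnfrsf10b (10.9 CPM) and far above them for Gdf15 (6.76 CPM), and replicate 2 was far above them for Sesn1 (22.7 CPM).

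In all 31 genes, the log2 fold change from vehicle to RP-6306 was tested for a difference between sets. Coded as the set without suffix minus the set titled _7, this change differed for 13 genes and was not called different for 18. It was higher without the suffix for Psrc1 (4.17), Plk2 (1.19), Ddb2 (1.07), Trp53inp1 (0.84), Mdm4 (0.78) and Ercc5 (0.69). It was lower for Eda2r (-4.10), Zfp365 (-3.57), Zmat3 (-1.55), Gdf15 (-1.53), Phlda3 (-1.36), Ccng1 (-1.01) and Sesn1 (-0.88). Each passed the edgeR test of the difference itself, beside 36.0% of all genes tested. The calls of Phlda3, Plk2, Ddb2, Trp53inp1 and Gdf15 were lost in 1 fit over the 32 libraries (adjusted p 0.0566 to 0.175). Proliferation genes and markers of epithelial, mesenchymal, leukocyte and endothelial cells differed in the same contrast, and their part was not tested.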

How the results depend on the processing

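No called value changed direction under any alternative. In the set titled _7 no member was called under any of them, and over all genes edgeR called 0 (1033 at an unadjusted p under 0.05), 6 without the filter and 60 with DESeq2. In the set without suffix the 16 members became 5 with a fold of at least 2, and all genes became 2817. In SPON against WT the 6 members became 10 with DESeq2, 1 with a fold of at least 2 and 18 in 1 fit over 32 libraries. Without SPON replicates 1 and 4 they became 10. The 1303 genes called over the table became 2857, 138, 5472 and 1627 in the same order. For the difference between sets the 13 members became 3 with a fold of at least 2 and 8 in 1 fit over 32 libraries, and all genes became 1754 and 3501. Of the 2 correlations with Cdkn1a, 0 passed the adjustment without the 2 farthest libraries, although r was still 0.84 and 0.82. With 1 library left out at a time, members called ranged from 15 to 18 in the set without suffix, 5 to 7 in SPON against WT and 12 to 13 for the difference, and all genes in SPON against WT from 506 to 1887. Of the single-gene values, 40 gained and 50 lost a call and 2483 did neither. No paired analysis was possible because the labels give no replicate numbers. The causes of these changes were not tested, except that a demand for a fold of at least 2 calls fewer genes by construction. Low counts limit Eda2r and Zfp365 in MYT and SPON, and Perp in the set titled _7.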

Other observations

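Levels of several of the 31 genes across all 6 groups are given here as values without a test. Trim7 had 1.64 to 4.43 CPM in the set titled _7 and 1.71 to 5.32 CPM in MYT and VEH, beside 5.80 to 18.0 CPM in SPON and 29.7 to 62.2 CPM in WT. Ei24 had 95.7, 106, 95.1, 56.9 and 114 CPM in SPON and 133, 140, 137, 114 and 124 CPM in WT, whereas in the 22 libraries of the other 4 groups it lay between 41.7 and 71.2 CPM. Sesn1 had 36.9 to 57.6 CPM in M20_7, VEH_7 and VEH, and 12.4 to 28.3 CPM in MYT, SPON and WT. Zmat3 had 63.2 to 82.8 CPM in the set titled _7, and at most 24.5 CPM in MYT. The VEH tumours were near the set titled _7 in Sesn1 and Psrc1 (2.17 to 8.30 CPM in VEH), and far from it in Perp, which had 53.2 to 214 CPM in VEH and at most 2.85 CPM in the set titled _7.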
